A study of Mus musculus with 8 samples.

Results

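The places described here are stretches of the mouse genome with a 5-methylcytosine (5mC) capture peak in all 3 MeDIP-seq lists of the series and a 5-hydroxymethylcytosine (5hmC) capture peak in none of its 3 hMeDIP-seq lists. They are the rows of 1 MeDIP-seq list, called the HDM-HDM list, whose region shared at least 1 bp with a region of both other MeDIP-seq lists and with no region of an hMeDIP-seq list. The rule kept 9881 of the 13338 rows of that list, or 74.1%, and the 6 lists hold 329018 rows in all. Presence in the lists chose the places, so presence, scores and p of these peaks are given below as a description.

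Lung DNA came from F1 male C57BL/6J mice. HDM is house dust mite extract, F0 marks the exposure of the dam and F1 that of the adult offspring. Both exposures were HDM in the F0-HDM_F1-HDM group, the maternal one alone in F0-HDM_F1-Saline and the adult one alone in F0-Saline_F1-HDM, while F0-Saline_F1-Saline had neither. Dams received 100 μg of HDM protein or the vehicle around mating, in pregnancy and in lactation, and adult males from 6 weeks of age received HDM or saline with challenges on d14, d18 and d21. Lungs of all groups were taken on d23, after airway responsiveness to methacholine had been measured. Each group gave 1 MeDIP-seq and 1 hMeDIP-seq library, 8 in all, and every library pooled DNA of mice from 3 dams. No library was replicated, so no difference between groups could be tested. A list names a searched library and its control, roles that were read from its label. The HDM-HDM list set F0-HDM_F1-HDM against F0-Saline_F1-HDM. The HDM-Saline list set F0-HDM_F1-Saline against F0-Saline_F1-Saline. The Saline-HDM list set F0-Saline_F1-HDM against that same control. The last pair of lists thus share a control library, and the F0-Saline_F1-HDM library is searched in one list and the control in another. Lung is a mixture of cell types, and peak lists of genomic DNA hold no expression by which the tissue label could be checked.

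In mammals 5mC is laid mostly on cytosines that precede a guanine (CpG), and TET enzymes oxidize it to 5hmC. MeDIP-seq and hMeDIP-seq, made here with the MethylCap and hMethylCap kits, read these marks by capture of DNA fragments, so a peak reports captured fragments and not a methylation level at a base. Microsatellites, also called short tandem repeats, are runs of a unit of a few bases repeated head to tail, and AC/GT repeats are the most common dinucleotide kind in the mouse. Reads from sequences with many copies cannot be placed with certainty on one of them.

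The sequences below show the kinds of DNA found among the places, on GRCm38 (mm10), forward strand, each cut around the centre of the peak. The first 4 show short tandem repeats, with bases in an exact repeat in capitals. They are introns of Col19a1, Ranbp3l and Hydin and a stretch of chromosome Y outside genes.
Col19a1 intron, chr1:24331597-24331756: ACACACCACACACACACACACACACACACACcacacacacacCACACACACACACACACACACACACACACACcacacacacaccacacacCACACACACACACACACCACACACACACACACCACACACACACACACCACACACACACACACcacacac
Ranbp3l intron, chr15:9006254-9006413: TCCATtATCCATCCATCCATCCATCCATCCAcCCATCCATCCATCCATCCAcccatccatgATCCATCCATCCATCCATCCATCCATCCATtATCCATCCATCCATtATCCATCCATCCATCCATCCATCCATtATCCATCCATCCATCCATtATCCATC
Hydin intron, chr8:110571244-110571403: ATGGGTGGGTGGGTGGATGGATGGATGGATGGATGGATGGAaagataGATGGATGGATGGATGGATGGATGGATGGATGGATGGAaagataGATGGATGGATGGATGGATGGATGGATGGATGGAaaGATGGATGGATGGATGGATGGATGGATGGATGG
Y chromosome, chrY:11858080-11858239: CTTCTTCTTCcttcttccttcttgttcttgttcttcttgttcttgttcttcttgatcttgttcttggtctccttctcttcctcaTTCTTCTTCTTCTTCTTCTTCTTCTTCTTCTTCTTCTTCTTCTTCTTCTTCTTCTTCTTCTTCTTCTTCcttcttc
The next pair show tandem repeats of longer units, in introns of D5Ertd579e and Plcb4. Capitals and lower case alternate every 99 bp in D5Ertd579e and every 26 bp in Plcb4, the shift at which each place matched itself best, and in D5Ertd579e such a stretch itself holds several copies of a shorter unit.
D5Ertd579e intron, chr5:36630477-36630776: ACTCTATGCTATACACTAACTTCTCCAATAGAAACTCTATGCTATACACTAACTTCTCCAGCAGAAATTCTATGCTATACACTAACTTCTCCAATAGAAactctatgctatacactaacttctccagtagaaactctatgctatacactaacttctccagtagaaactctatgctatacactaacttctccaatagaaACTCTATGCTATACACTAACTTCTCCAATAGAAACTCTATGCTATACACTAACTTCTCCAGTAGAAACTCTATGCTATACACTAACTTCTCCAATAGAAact
Plcb4 intron, chr2:135988597-135988776: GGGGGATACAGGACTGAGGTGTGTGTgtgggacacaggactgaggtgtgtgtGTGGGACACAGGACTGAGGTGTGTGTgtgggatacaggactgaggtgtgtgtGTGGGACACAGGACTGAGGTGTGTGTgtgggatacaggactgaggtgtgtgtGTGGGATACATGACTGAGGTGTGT
The last 5 have each CpG in capitals. The Bcar3 window holds none, the window from a repeat copy on chromosome 7 holds none, and the windows beside Fcgr3 and in Ptpru are from the CpG-richest places.
Bcar3 intron, chr3:122308412-122308571: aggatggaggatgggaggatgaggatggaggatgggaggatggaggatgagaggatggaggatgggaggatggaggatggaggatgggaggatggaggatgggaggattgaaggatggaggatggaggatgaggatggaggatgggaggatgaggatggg
Repeat copy on chromosome 7, chr7:61346555-61346754: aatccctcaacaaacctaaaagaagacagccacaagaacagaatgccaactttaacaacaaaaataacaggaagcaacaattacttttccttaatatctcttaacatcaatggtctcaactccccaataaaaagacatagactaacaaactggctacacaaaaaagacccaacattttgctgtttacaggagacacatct
mt-Cytb, chrMT:14882-15041: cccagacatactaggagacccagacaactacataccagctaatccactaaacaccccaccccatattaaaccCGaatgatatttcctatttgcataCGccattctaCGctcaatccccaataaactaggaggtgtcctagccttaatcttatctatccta
Ptpru intron, chr4:131836716-131836915: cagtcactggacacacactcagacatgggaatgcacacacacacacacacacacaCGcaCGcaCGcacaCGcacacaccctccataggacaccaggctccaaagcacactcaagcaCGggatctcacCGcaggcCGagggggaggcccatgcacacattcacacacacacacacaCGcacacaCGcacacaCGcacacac
tRNA cluster beside Fcgr3, chr1:171065448-171065647: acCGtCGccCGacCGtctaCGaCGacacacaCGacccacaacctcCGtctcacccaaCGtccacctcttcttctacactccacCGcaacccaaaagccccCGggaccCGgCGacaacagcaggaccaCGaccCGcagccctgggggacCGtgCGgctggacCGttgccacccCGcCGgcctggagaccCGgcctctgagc
The Bcar3 place and the repeat copy on chromosome 7 were picked after their values had been seen.

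Short tandem repeats lay at the centre of the places. Within 50 bp of the centre they made up 18.5% of the bases, against 1.90% at the centre of the 965 places with a peak in all 6 lists, called six-list places below. At 800 bp or more from the centre the share was 2.31% around the places and 1.62% around six-list places, and the mean of 6618378 genome tiles of 400 bp was 2.30%. AC/GT repeats alone gave 8.69% of the bases at the centre of the places, against 0.829% for six-list places and 0.498% for the tiles. The order was turned round for CpG. At the centre the places had 0.674 CpG per 100 bp and six-list places 4.26, and at 800 bp or more the values were 1.00 and 1.94. The places were thus poorer in CpG at the centre than in their own flanks, while six-list places were richer. In places with under 5% short tandem repeat the values were nearer, with 0.937 CpG per 100 bp at the centre and 1.06 in the flanks. The lowest values of that set lay away from the centre, with 0.734 at -310 bp and 0.719 at 290 bp. Here a short tandem repeat is an exact run of a unit of up to 6 bp, at least 12 bp long and with at least 3 copies.

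**Figure D1:**
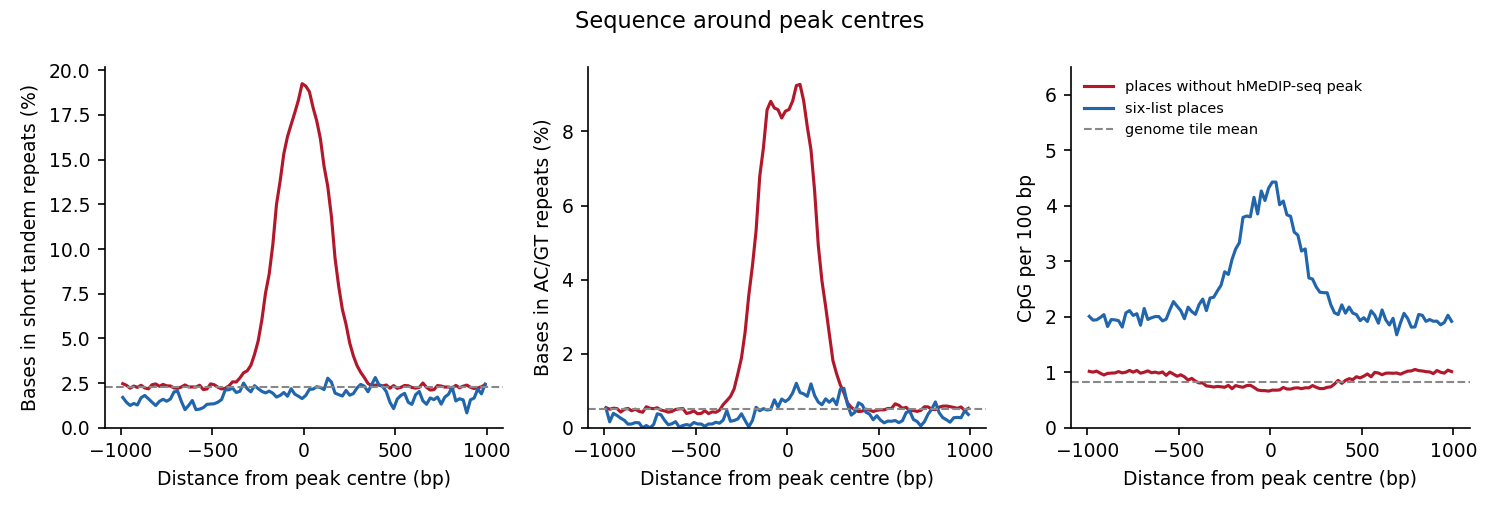
Share of bases in short tandem repeats, share in AC/GT repeats (both in %) and CpG per 100 bp against distance from the peak centre in bp, for 9881 places (red) and 965 six-list places (blue), with the mean of genome tiles dashed. The places peak in both repeat panels, with 18.5% and 8.69% within 50 bp of the centre, and lie low in the CpG panel.

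Of the places, 64.9% held at least 1 short tandem repeat, against 18.2% of six-list places and 26.5% of genome tiles. A share of 20% or more of the bases was reached by 26.5% of the places (95% Clopper-Pearson interval 25.6 to 27.4%), against 2.69% of six-list places (1.77 to 3.92%) and 2.14% of tiles. The intervals cover counting error only, and neighbouring places that share sequence are not independent. An AC/GT repeat was present in 44.3% of the places (43.3 to 45.3%), in 6.63% of six-list places (5.14 to 8.39%) and in 6.16% of tiles. List rows outside the rule had shares between those of the places and of six-list places. In the 1100 rows without a peak in both other MeDIP-seq lists they were 37.6%, 11.8% and 25.7%, in the order above. In the 2357 rows in all 3 MeDIP-seq lists with an hMeDIP-seq peak, six-list places included, they were 28.5%, 9.76% and 15.4%. The leading unit had 2 bases in 4202 places, 4 bases in 983, 6 bases in 541, 3 bases in 426, 5 bases in 180 and 1 base in 80. Among six-list places a 2-base unit led in 7.56%, against 42.5% of the places. The median place had 7.84% of its bases in short tandem repeats, and the median six-list place and the median tile had 0%. The median was also 0% for the 609 places with a caller p of 0.001 or less in the HDM-HDM list.

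CpG was scarce. The median was 2 CpG per place, or 0.498 per 100 bp, against 15 CpG and 3.61 per 100 bp for six-list places and 0.5 per 100 bp for tiles. No CpG at all was found in 1766 places, 17.9% (17.1 to 18.6%), against 4 six-list places, 0.415% (0.113 to 1.06%), and 12.5% of tiles. It was 8.64% of the 1100 rows without a peak in both other MeDIP-seq lists. In the 2357 rows in all 3 MeDIP-seq lists with an hMeDIP-seq peak it was 1.74%. The share of list rows that were places fell with CpG number. It was 92.9% of the 1902 rows without CpG, 90.97% of rows with 1 or 2, 81.6% of rows with 3 to 5, 56.5% of rows with 6 to 10 and 14.5% of the 1616 rows with 11 or more. The six-list share of the same rows was 0.210%, 0.362%, 1.83%, 9.50% and 42.5%. Median length was 412 bp for the places and 414 bp for six-list places, so peak length was nearly the same.

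The gene context also differed from that of six-list places. An exon was touched by 3.82% of the places (3.45 to 4.21%), against 19.7% of six-list places (17.2 to 22.3%) and 8.58% of tiles. In the 1100 rows without a peak in both other MeDIP-seq lists this share was 6.36%. In the 2357 rows in all 3 MeDIP-seq lists with an hMeDIP-seq peak it was 15.7%. Coding sequence was touched by 136 places, or 1.38%, against 13.6% of six-list places. An intron alone held 42.6% of the places (41.6 to 43.6%), 26.2% of six-list places (23.5 to 29.1%) and 38.0% of tiles. A transcription start lay within 2 kb of 10.1% of the places (9.50 to 10.7%), of 18.5% of six-list places (16.1 to 21.1%) and of 11.1% of tiles. Outside genes lay 53.6% of the places and 54.1% of six-list places. The whole list, of which the places are the larger part, lay nearer to them, with 6.13% of rows in an exon, 11.2% within 2 kb of a start, 37.7% with an AC/GT repeat and 22.3% with 20% or more of short tandem repeat. A multi-copy share over 50%, counted over windows of 51 bp that occur again in the assembly, was found in 34.4% of the places and 68.5% of six-list places.

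**Figure D2:**
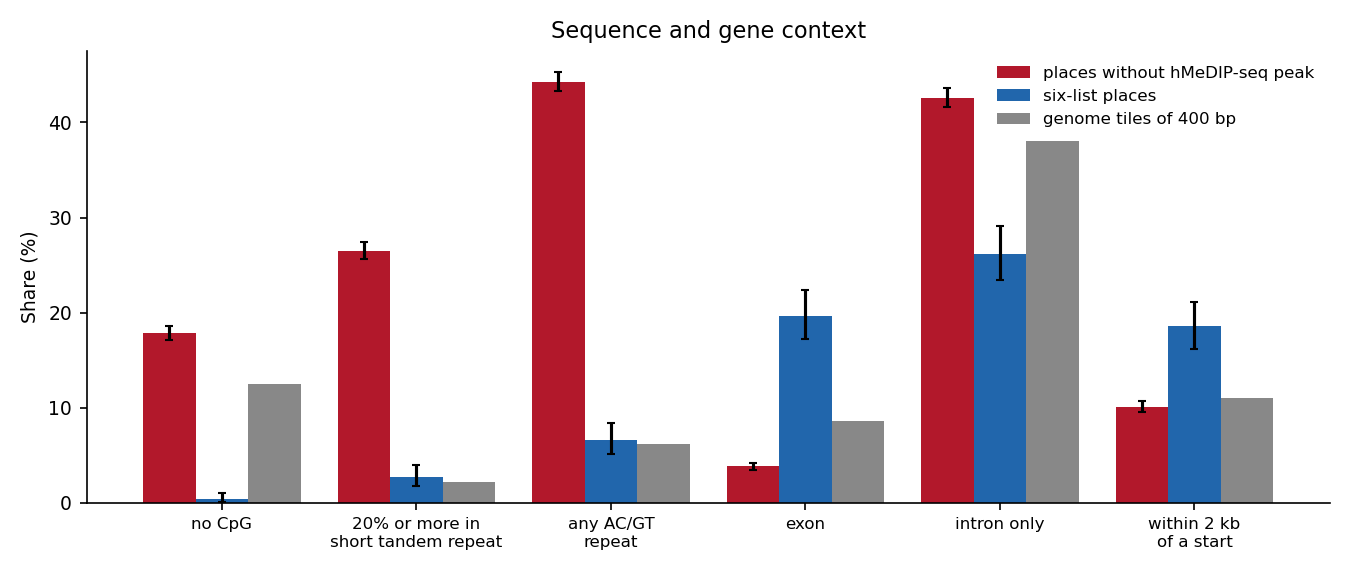
Share in % of the places (red), six-list places (blue) and genome tiles of 400 bp (grey) with each sequence or gene feature, with 95% Clopper-Pearson intervals on the first pair. An AC/GT repeat was present in 44.3% of the places, 6.63% of six-list places and 6.16% of tiles, and an exon in 3.82%, 19.7% and 8.58%.

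The scores of the authors' peak caller describe how closely the coverage follows its peak shape. They have no unit, and scores of different lists come from different libraries and controls. Over the places the score ran between 1.28 and 29.8 in the HDM-HDM list, with a median of 1.51, and the median of the whole list was 1.53. In the HDM-Saline list the median was 2.14, against 1.52 for the whole list, and in the Saline-HDM list 2.18, against 1.53. The median place thus stood above 48.3% of the rows of its own list and above 88.2% and 87.9% of the rows of the other lists, in that order. A caller p of 0.001 or less was given to 609 places in the HDM-HDM list, or 6.16%, where 8.57% of all rows had one. In the HDM-Saline list it was 18.7% of the places and 3.58% of all rows, and in the Saline-HDM list 17.0% and 4.18%. Nothing is read from these shares, since the rule used the lists.

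The peaks lay at nearly the same position in each list. The median distance between centres was 21 bp to the peak of the HDM-Saline list and 14 bp to that of the Saline-HDM list. Under 50% of the shorter peak was shared in 17 and 6 places. Spearman's rho of the scores across the 9881 places was 0.53 between the HDM-HDM list and the HDM-Saline list, 0.69 with the Saline-HDM list, and 0.84 between the last pair. The lists share libraries and the places share sequence, so these are descriptions. The place nearest the limit of the rule, chr13:119600079-119600573, shared 5 bp with a peak of another MeDIP-seq list and scored 5.54, 7.11 and 6.88. Just outside it, chr4:10110376-10110786 and chr4:69163498-69163917 shared 1 bp with an hMeDIP-seq peak and scored 2.19 and 1.78 in the HDM-HDM list. An hMeDIP-seq peak lay within 1 kb of 1437 places, or 14.5%.

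The places were sorted into kinds that do not overlap, by position and sequence. Mitochondrial places and chromosome ends were set apart first, then multi-copy places, then tandem repeats. The multi-copy share of a place counts its windows of 51 bp that occur more than once in the assembly, copies inside the same place included. Tandem repeats such as the D5Ertd579e place could thus count as multi-copy. Before this sorting, 2619 places had 20% or more in short tandem repeats. There were 14 places within 1 kb of the last assembled base of a chromosome, 16 on the mitochondrial chromosome, 3385 with a multi-copy share over 50%, 2062 with 20% or more in short tandem repeats, 380 in tandem repeats of a longer unit and 4024 others. Median scores in the HDM-HDM list were 15.6 at chromosome ends, 3.62 on the mitochondrial chromosome, 1.73 for multi-copy places, 1.48 for short tandem repeats, 1.54 for longer units and 1.44 for the others. Of the 190 places with a caller p of 1e-06 or less in that list (1.92% of the places, where 3.31% of all rows had one), 96 were multi-copy, 38 short tandem repeats, 25 others, 15 longer units, 12 chromosome ends and 4 mitochondrial. Thus 50.5% of the strongest places were multi-copy, against 34.3% of all the places. Whether the scores rest on reads placed among copies was not tested, since the lists hold no reads.

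**Figure D3:**
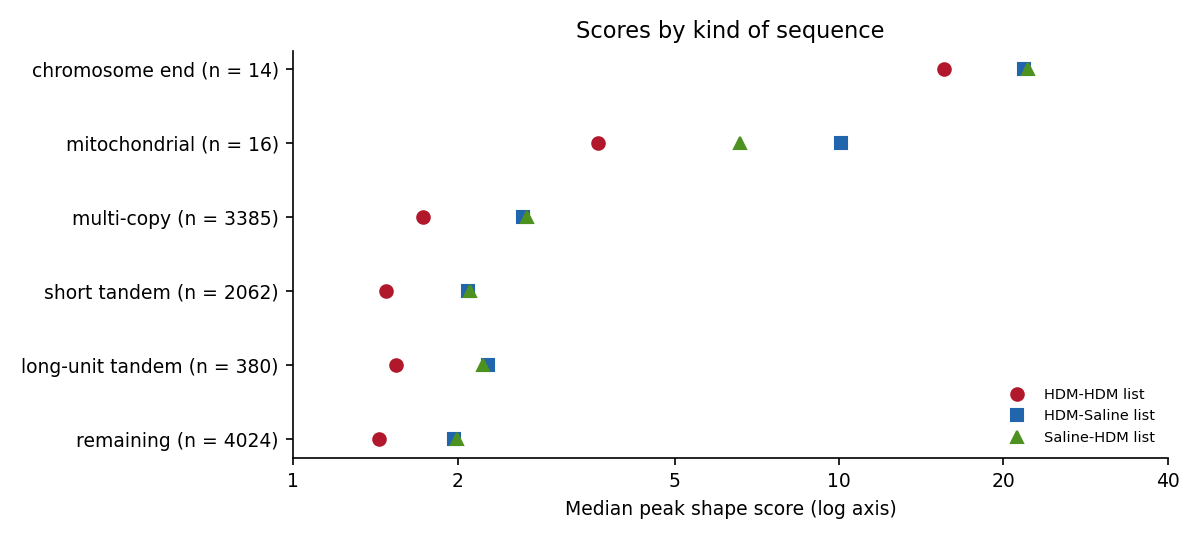
Median peak shape score (log axis, no unit) of each kind of place in the 3 MeDIP-seq lists, 1 mark per list, with the number of places beside each kind. Chromosome ends are highest in all 3 lists, with medians of 15.6, 21.8 and 22.2, and the 4024 remaining places lowest, with 1.44, 1.97 and 1.995.

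Places at chromosome ends had the highest median scores among the kinds. A row of the list lay within 1 kb of the last assembled base on 20 of 21 nuclear chromosomes, and on 14 of them it was a place, the others having at least 1 hMeDIP-seq peak. Among these others, the ends of chromosomes 18, 7 and 12 scored 34.96, 34.64 and 32.36 in the HDM-HDM list, above every place. They too held no CpG and had at least 90.1% of their bases in 6-base tandem repeats. The ends of chromosomes 16, 14 and Y scored 24.47, 21.7 and 2.329. The end of chromosome 2, chr2:182012794-182013203, scored 29.8, 37.9 and 37.7 in the HDM-HDM list, the HDM-Saline list and the Saline-HDM list, the order used for scores below. All of its bases lay in tandem repeats of a 6-base unit, and it held no CpG. The ends of chromosomes 19, X, 3 and 1 followed with 27.7, 27.4, 26.6 and 24.8 in the first list. The end of chromosome 4 was the weakest, with 1.57, 3.96 and 3.06, and held no such repeat. Except on chromosomes 2 and 4, the end places also ran into unsequenced bases, from 28 on chromosome X to 152 on chromosome 8. Of the 10 places with the highest lowest score over the lists, 7 were chromosome ends.

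Repeats of the same 6-base unit away from the ends gave 68 further places with 20% or more of their bases in 6-base tandem repeats, 31 of them inside genes. Their median scores were 4.77, 7.43 and 7.28, against 15.6, 21.8 and 22.2 at the ends. One on chromosome X, chrX:170758154-170758558, scored 29.002, 39.0 and 39.4, the highest of all places in the HDM-Saline and Saline-HDM lists. It ran into a gap of the assembly. An intron of Lama1, which encodes a laminin chain of basement membranes, held chr17:67741256-67741662 with 10.5, 16.7 and 15.7. An intron of Ppp1r9a, a neuronal actin-binding scaffold, held chr6:4923796-4924211 with 9.91, 14.5 and 14.5.

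The other places among the 10 highest were tandem repeats as well. The place on chromosome Y shown above, chrY:11857939-11858359, had 55.6% of its bases in short tandem repeats and scored 18.9, 24.2 and 24.2. The D5Ertd579e place, chr5:36630414-36630826, scored 16.6, 21.8 and 22.6 and matched itself at 97.1% of bases at a shift of 99 bp. Among the 4024 places of no named kind that lay over 10 kb from a gap in the assembly, Bcar3, an adaptor of integrin signalling, had the highest scores. Its place chr3:122308292-122308695 gave 14.4, 25.4 and 24.0 with 1 CpG in all. This place is not free of repeats, as 91.6% of its bases are marked as repeat in the assembly. It matched itself at 57.6% of bases at a shift of 15 bp, where the longer-unit kind asked for 70%.

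Among places in an exon or within 2 kb of a start of a protein-coding gene, Mid1, a ubiquitin ligase gene on chromosome X, had the highest lowest score. Its exonic place chrX:169989355-169989808 scored 9.49, 12.1 and 13.1, and all of its 51-bp windows had another copy. A place outside genes, chrY:90763617-90764080, scored 9.33, 12.4 and 13.1, and all of its windows had another copy too. Whether this pair is 1 sequence was not tested. Of the places in exons or near starts, the Plcb4 place came next. It is chr2:135988484-135988886, lay in an intron 811 bp from a transcription start of this phospholipase C gene and scored 9.16, 12.9 and 13.1. Of the 10 highest of this kind, 6 lay in Sfi1, with scores of 6.61 to 8.24 in the HDM-HDM list. Pxylp1, a xylose phosphatase of glycosaminoglycan synthesis, had 6.82, 11.8 and 11.8 in an intron with 55.4% short tandem repeat.

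Multi-copy places were placed unevenly along the genome. Over the nuclear chromosomes there were 3.73 places per assembled Mb, and chromosome 14 had 5.27, chromosome 8 4.98 and chromosome X 1.88. On X 85.4% of the places were multi-copy and on Y 96.1%, against 17.2% on chromosome 10 and 58.9% on chromosome 14. With multi-copy places left out, X had 0.275 and Y 0.170 places per Mb, while the autosomes lay between 2.17 on chromosome 14 and 3.33 on chromosome 5. All mice were male, with 1 copy each of X and Y. The part of copy number in these densities was not tested.

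**Figure D4:**
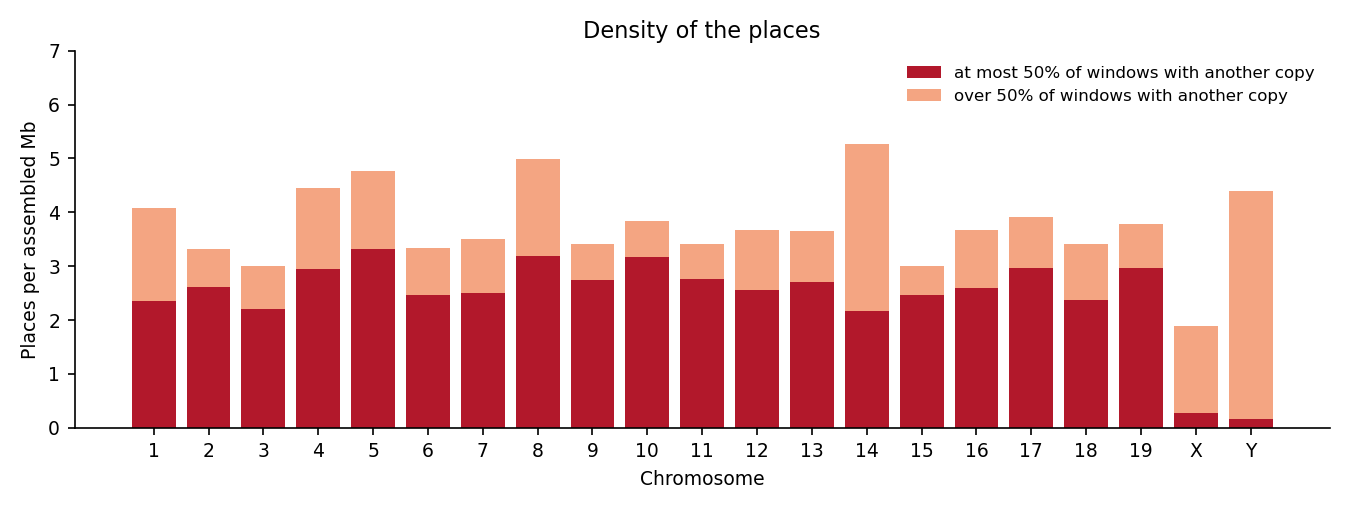
Places per assembled Mb on each nuclear chromosome, split at a multi-copy share of 50%. The dark part, with a share of at most 50%, reaches 0.275 on X and 0.170 on Y and 2.17 to 3.33 on the autosomes.

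Runs of at least 12 places with no gap over 50 kb gave 45 clusters with 1090 places, 11.03% of all, a rule chosen after the positions had been seen. In 38 of the clusters the median multi-copy share was over 50%. Chromosome Y had 12 clusters with 239 places, chromosome 14 had 7 with 168 and chromosome 4 had 7 with 159. The densest stretch on chromosome 1, chr1:84958739-85345311, held 112 places with a median score of 2.03, and chr1:85447398-85658394 held 55 more. It covers C130026I21Rik with 71 places, and the second covers Sp140 with 16, Sp110 with 9 and Sp100 with 3, genes of nuclear body proteins. The cluster chr11:3112308-3200083 held 72 rows of the HDM-HDM list, of which 36 were places. Of the 57 rows in Sfi1, which encodes a centrin-binding protein, 29 were places, where the rule kept 74.1% of all rows. The Sfi1 places had a median score of 4.34, and the strongest, chr11:3155702-3156102, scored 12.8, 18.2 and 16.3. The clusters on chromosome 4 lie among zinc finger genes such as Zfp600, Zfp978 and Zfp979, and those on chromosome 5 among Speer4 genes and Cyp3a41a and Cyp3a41b. On chromosome 7, Snhg14, a long RNA that hosts small nucleolar RNAs, held 18 places in chr7:59709529-59797610.

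Sequence families were sought among the 7262 places with under 20% short tandem repeat. Places that shared at least 100 words of 24 bp fell into 27 families of 10 or more, with 1589 places. The largest had 508 places on 21 chromosomes, 84 of them on X, and median scores of 1.84, 3.04 and 3.00, and the median copy number of its windows was 1983. The second had 440 places and the next 166. The window shown from chromosome 7 belongs to the largest. A family of 45 places on 13 chromosomes had higher medians, 3.83, 5.15 and 5.55. Another 3 families of 15 to 18 places lay on chromosome 14 alone and 1 of 15 in Snhg14 alone.

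On the mitochondrial chromosome all 16 rows of the list were places, and the hMeDIP-seq lists hold no row there. They covered 5854 of 16299 bp, or 35.9%. The score in the HDM-Saline list was above that in the Saline-HDM list, and this above that in the HDM-HDM list, in 16 of 16 places, an order that 47.3% of all places had. The place in mt-Cytb, the cytochrome b of complex III, chrMT:14762-15180, scored 6.60, 13.4 and 10.4. The place over mt-Nd1 and the leucine tRNA mt-Tl1 scored 6.03, 12.7 and 9.59, and that over mt-Atp6 and mt-Atp8, subunits of ATP synthase, 4.89, 12.8 and 9.16. The lowest, over mt-Cytb, mt-Nd6 and mt-Te, scored 1.46, 7.24 and 4.11. The median place stood above 93.9%, 99.7% and 99.2% of the rows of the 3 lists. The 16 places lie on 1 molecule and share its copy number, so they are not separate measurements of a condition.

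**Figure D5:**
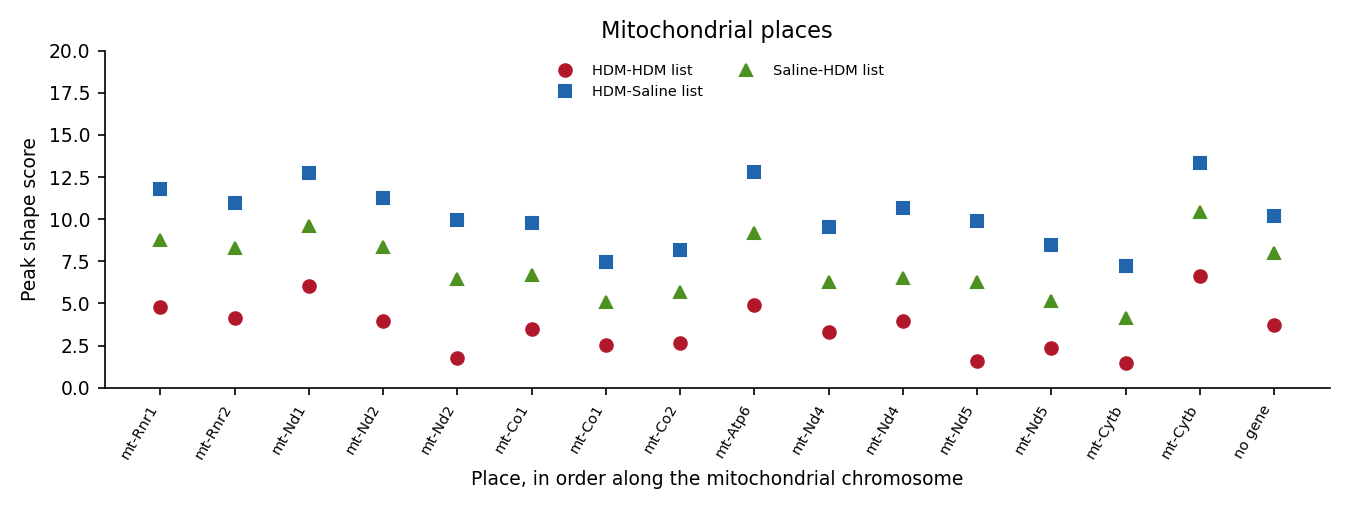
Peak shape score (no unit) of the 16 mitochondrial places in order along the chromosome, in the 3 MeDIP-seq lists, labelled by the first gene covered. The HDM-Saline list is highest and the HDM-HDM list lowest at all 16.

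A few places were rich in CpG. The highest density, 11.1 per 100 bp with 44 CpG, was at chr1:171065306-171065700 beside Fcgr3, which encodes an Fc gamma receptor, and its scores were 1.67, 1.57 and 2.15. Of the 13338 rows, 6 covered a nuclear tRNA gene, all 6 were places and all lay in this stretch of chromosome 1. The rule kept 74.1% of all rows, and RefSeq has 403 nuclear tRNA genes. The multi-copy share of the 6 ran from 61.0% to 100%. These 6 places had a median of 8.88 CpG per 100 bp and median scores of 1.86, 2.74 and 2.38. In Ptpru, a receptor-type tyrosine phosphatase gene, chr4:131836617-131837001 had 32 CpG, 10 of them in the window shown above, and scored 1.34, 2.56 and 2.15.

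At least 1 place lay in 2266 of 21924 protein-coding genes, 10.3%. The share rose with gene length, from 1.53% of the 7775 genes of up to 10 kb to 6.91%, 23.7%, 50.7% and, over 500 kb, 76.5% of 230 genes. Genes that held a place had a median length of 88068 bp, against 17410 bp for all. The most places were in C130026I21Rik with 71 of 88 list rows, Gm20388 with 40 of 75, Sfi1 with 29 of 57, Sox5 with 17 of 18 and Sp140 with 16 of 20. The rule kept 74.1% of all list rows. Gm20388 is annotated over 4434882 bp and had 0.902 places per 100 kb. Per 100 kb, A530032D15Rik had 56.0, Sfi1 47.1, Gm21698 45.3, Sp110 41.1 and Sp140 35.8. All places of C130026I21Rik, A530032D15Rik, Gm21698, Sp110 and Sp140 were multi-copy by the limit of 50%, and which copy their reads came from was not tested.

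Of the genes of airway smooth muscle contraction, 11 of 25 held a place (44%, median length of the list 177 kb). Of all protein-coding genes 10.3% did, with 23.7% of those of 50 to 200 kb and 50.7% of those of 200 to 500 kb. The lowest p was in Pde4d, a cAMP phosphodiesterase, whose place scored 3.62, 2.65 and 4.32 with a multi-copy share of 86.5%. Ryr3 and Itpr2, calcium release channels, scored 1.51, 1.74 and 2.13 and 1.497, 1.96 and 2.07. Of motile cilium genes, 15 of 28 held a place (53.6%, 178 kb). Dnah8, an axonemal dynein heavy chain, held 10, Dnah12 held 5 with a best place at 2.62, 2.13 and 2.73, and Hydin, a central pair protein, scored 2.20, 3.11 and 2.99 in the repeat shown above.

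Of collagens and matrix genes, 13 of 30 held a place (43.3%, 138 kb), led by Lama1. Of all protein-coding genes, 23.7% of those of 50 to 200 kb and 50.7% of those of 200 to 500 kb held one. Col23a1, a transmembrane collagen, scored 4.83, 8.68 and 8.27, Col4a6, of the basement membrane, 4.51, 8.66 and 8.08, and Col19a1 2.02, 2.87 and 2.91. Of potassium channel genes 16 of 27 held a place (59.3%, 298 kb). A list of synaptic adhesion and other neuronal genes was picked in part for their length. Of these genes 30 of 42 held a place (71.4%, 1116 kb), where 76.5% of all genes over 500 kb held one. Cdh18 among them scored 4.93, 5.31 and 6.94. Of glutamate and GABA receptor genes 12 of 28 held a place (42.9%, 386 kb).

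The following lists can be read beside the 10.3% of all protein-coding genes that held a place. Of type 2 immunity genes, 2 of 30 did (6.67%, median length 10.99 kb), Rora, a nuclear receptor needed for group 2 innate lymphoid cells, at 1.59, 2.41 and 2.43, and Chil3, a chitinase-like protein, at 1.39, 1.52 and 1.71. Of house dust mite sensing genes 2 of 17 did (11.8%), Ly86 and the mannose receptor Mrc1, and of lung epithelium genes 3 of 27 (11.1%), Muc4, Foxp1 and Spdef. Of imprinted genes 5 of 30 held a place (16.7%), with Gnas at 2.62, 2.67 and 3.25. None of 20 methylation enzymes and readers did (median length 30.0 kb). The lists differ in gene length, which moves with these counts, and no list was tested against others.

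Of the 24 annotated candidate genes of the study, 8 held a place (33.3%, median length of the list 33.4 kb). Of all protein-coding genes 10.3% did, with 6.91% of those of 10 to 50 kb. The 8 genes ran from 5.41 kb in Asmt to 433 kb in Luzp2. The candidate list was chosen on these samples, so it is not independent evidence. The study picked these genes for changes in both methylation and hydroxymethylation, and its discussion speaks of promoters. By the rule no place overlaps an hMeDIP-seq peak, so the places need not be the regions behind the study's list. Kcnh1, a voltage-gated potassium channel, held 3 places. The strongest, chr1:192453877-192454274, lay in an intron 19342 bp from a start and scored 5.06, 7.63 and 7.38. Ranbp3l had 85.4% of its place in a 4-base repeat and scored 3.25, 4.07 and 4.47 at 932 bp from a start. Asmt, the last enzyme of melatonin synthesis, scored 2.61, 6.05 and 5.02. Nox3, an NADPH oxidase, scored 2.42, 3.43 and 2.51 with a multi-copy share of 71.0%. Acox2, Aida and Luzp2 scored between 1.39 and 1.55 in the HDM-HDM list.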

How the data were processed

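MeDIP-seq (5mC) and hMeDIP-seq (5hmC) peak lists of F1 lung DNA were analysed, 1 library per group and assay. Bowtie 0.12.9, CASAVA 1.8.0, FastQC and the build mm10 stand in the submitters' processing notes, and the study's methods name CLC Genomic Workbench for the peaks. The score is the peak caller's shape score as deposited. The p-value is the authors' own as deposited, reaches 0.1 and was checked to be the normal upper-tail probability of that score, so the lists are not limited to strong peaks. The study's methods state a stricter false discovery rate for its peaks, and how the deposited lists relate to it is not given in the sources used here. A peak in a list thus means a row of it, at any p. The lists hold no reads, so the depth behind a peak is unknown, and columns of closest genes were not used.

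Overlaps of at least 1 bp, sequence features on GRCm38.p6 and gene context from GENCODE vM21 were computed in Python (version 3.11.15; numba 0.67.0, scipy 1.17.1, pandas 2.3.3, numpy 2.4.6), and tRNA genes were taken from RefSeq. Genome tiles of 400 bp served as a description of the genome. No test between groups was made, and shares have Clopper-Pearson intervals at 95%. The functions were tested on simulated data. Named are the places with the highest lowest score over the lists or the highest score in a list, the CpG-richest and the strongest without CpG, the strongest in exons or near starts, the genes with most places, up to 4 genes per gene list by lowest p and places at the limit of the rule. Other names were chosen after their values were seen. Members, gene lists and rules were chosen with earlier results of these data known. The alternatives were stricter p, more overlap, distance to hMeDIP-seq peaks, and places without multi-copy sequence or without X and Y. Sequencing reads were not analysed here, and some items are not reported here.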

Additional observations from a re-analysis of the deposited data

How the results depend on the processing

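No paired analysis was possible because each group had 1 library per assay and no replicate numbers. Over 9 results and 6 alternatives, 25 values stayed within the interval of the reported value (within 1.5 times for counts) and 29 moved. At a caller p of 0.001 or less there were 609 places in 147 protein-coding genes, with a median of 0.734 CpG per 100 bp, 13.6% within 2 kb of a start, 37.3% in introns only, 5.91% in exons, a median short tandem repeat share of 0% and a median lowest score of 3.87. At 1e-06 or less there were 190 places in 54 genes, with 0.483 CpG per 100 bp, 28.9% without CpG, 12.6% near a start, 38.4% in introns only, 6.84% in exons, a median repeat share of 0% and a median lowest score of 6.09. Without an hMeDIP-seq peak within 1 kb, CpG was 0.491 per 100 bp, 19.3% had none, the repeat share was 9.54% and the lowest score 1.48. Without multi-copy places 6483 remained, with 0.487 CpG per 100 bp, 48.3% in introns only, a repeat share of 12.6% and a lowest score of 1.45. Without X and Y, introns only held 45.1%, the repeat share was 8.89% and the lowest score 1.49. Sharing at least 50% of the shorter peak moved none of the 9. The alternatives for the scores were chosen after seeing the data, and the cause of the moves was not tested. Unknown depth limits every value for a single place.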
